A study of Homo sapiens with 6 samples.

Results

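The early growth response (EGR) factors EGR1, EGR2, EGR3 and EGR4 and their corepressors NAB1 and NAB2 were taken by gene name from the deposited tables, 6 of 60448 genes. The assay was 4sU-seq, in which 4-thiouridine marks the RNA made while the label is present, so that new transcripts are counted. The cells were RPE1, an immortalised human line from the retinal pigment epithelium. There were 6 libraries in 3 groups of 2, which were wild type cells without treatment, wild type cells given H2O2, and cells with knockdown of NuMA (also labelled TDIF) given H2O2. Both wild type groups had no doxycycline and the knockdown cells had it, so the drug and the knockdown cannot be told apart. No dose, duration or statement that libraries came from separate cultures is given, so the p-values cover no more than the spread between libraries, and that spread may be technical. An untreated knockdown was not analysed here.

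EGR proteins are zinc finger transcription factors that bind a GC-rich site. EGR1, EGR2 and EGR3 are immediate early genes in many cells, switched on through RAS-ERK signalling by serum response factor (SRF) and its ternary complex partners. NAB1 and NAB2 bind an inhibitory domain shared by EGR1, EGR2 and EGR3, which EGR4 lacks, and repress transcription in part through CHD4, the ATPase of the NuRD complex. NAB2 is itself an EGR target in several cell types, which makes it a feedback inhibitor.

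After H2O2, newly made RNA of all 4 EGR genes rose in wild type cells and that of NAB2 fell, while NAB1 did not pass the test. In the knockdown given H2O2, EGR1, EGR3, EGR4 and NAB2 were higher than in wild type cells given H2O2, and EGR2 and NAB1 did not pass the test. Before treatment NAB2 stood above EGR1 per length of transcript, and after H2O2 EGR1 stood above NAB2 in both genotypes.

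The sequences just before a RefSeq start of EGR1 and of EGR2 are shown, and for EGR4 a single site before its RefSeq start. They were chosen for a like arrangement of motifs, which in EGR4 is 1 letter off. Whether these motifs play a part in the rise after H2O2 was not tested. RefSeq start sites (GRCh38.p14) were matched for 5 of the 6 genes, 9 starts in all, and EGR3 was not matched. The 250 bases before each start were searched on both strands for 4 motifs, which could overlap. The first was the CArG box bound by SRF, searched by name as a run of A and T between CC and GG. The others were the cAMP response element half-site ACGTCA, the EGR site GCGNGGGCG and CCGGAA, here called the ETS core. A match describes the letters and not binding. Among 35116 windows of this length, 1.16% held a CArG box, 7.10% the half-site, 8.41% the EGR site and 14.5% the ETS core. The EGR1 window (chr5:138465229-138465478, plus strand) held 2 CArG boxes, 105 and 83 bases before the start, and 2 half-sites, 136 and 67 bases before it. Of all windows 0.0313% held at least 2 CArG boxes. Of 3 EGR2 starts, 1 had a window (chr10:62816367-62816616, minus strand) with a CArG box, 71 bases before the start, and a half-site, 55 bases before it. Both windows follow, each 5′ to 3′ on the strand of its gene, with CArG boxes and half-sites in capitals.
EGR1: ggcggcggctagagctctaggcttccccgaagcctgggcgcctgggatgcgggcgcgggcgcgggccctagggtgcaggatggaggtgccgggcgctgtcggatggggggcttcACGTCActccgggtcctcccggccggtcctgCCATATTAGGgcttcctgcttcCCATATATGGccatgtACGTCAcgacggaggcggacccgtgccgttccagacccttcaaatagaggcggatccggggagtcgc
EGR2: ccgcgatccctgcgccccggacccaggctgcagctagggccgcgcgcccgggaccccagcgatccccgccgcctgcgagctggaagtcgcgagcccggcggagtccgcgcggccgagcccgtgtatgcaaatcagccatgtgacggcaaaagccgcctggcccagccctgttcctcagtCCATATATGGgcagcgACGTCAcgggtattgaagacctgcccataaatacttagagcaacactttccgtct

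In both windows a CArG box was followed by 6 bases and then by the half-site. This arrangement was defined after the windows had been read, so its rarity is a description. It occurred in 2 of the 35116 windows, those of EGR1 and EGR2 (0.0057%), which cover 27305 genes. Allowing 1 letter off the box added 1 window, that of EGR4 (0.00854% in all), where the site began 126 bases before the start. The sites span 22 bases at chr5:138465396-138465417 (plus strand), chr10:62816416-62816437 (minus strand) and chr2:73293653-73293674 (minus strand), the last inside the first exon of EGR4 in GENCODE v29. Capitals mark the box, or the box with 1 letter off, and the half-site.
EGR1: CCATATATGGccatgtACGTCA
EGR2: CCATATATGGgcagcgACGTCA
EGR4: CCATGTTTGGgcatttACGTCA

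The corepressor genes had no CArG box in the windows before their matched starts, 3 for NAB1 and 1 for NAB2. Exons annotated in GENCODE v29 began after 30 bases of the NAB2 window, and after 62 and 151 bases of 2 NAB1 windows. Sequence farther upstream was not searched, so the lack of a box describes these windows only. The window of NAB2 held 1 EGR site, 62 bases before the start and past the first base annotated as exon. EGR sites stood before 2 of the NAB1 starts, 2 in one window, 36 and 42 bases before the start, and 3 in the other, 175 to 230 bases before it. These windows overlap, and the 2 sites of the one are also among the 3 of the other, so the distinct sites number 3. EGR1 held 1 EGR site, 198 bases before its start. The letters CCGGAA were not found in the windows of the matched members. Shorter forms of the ETS motif were not searched, so the presence of ETS sites was not tested. The EGR1 window holds the shorter letters TTCC, which are GGAA on the other strand, between its CArG boxes.

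The deposited tables give 1 value per gene and group, with a fold change and p-values, and no value per library. From the steps of these values the mean count of a group's libraries was worked out for every gene. An untreated wild type library held 14576529 counts on average, an H2O2-treated wild type library 17989740 and a knockdown library 16565168, and no depth is known for any single library. The deposited log2 changes were not scaled for depth. The median gene (of those reaching 50 mean counts) moved by 0.29 on the log2 scale after H2O2 and by -0.29 in the knockdown, and the changes of single genes are relative to it. Errors are the standard errors (SE) that the authors' deposited p-values imply. A gene was called when its adjusted p (Benjamini-Hochberg, over all tested genes) was under 0.05 both in the deposited table and after centring, with the same sign. NUMA1, the gene of the knocked-down protein, had mean counts of 1168, 1571 and 933.5 in untreated wild type, H2O2-treated wild type and knockdown libraries. It fell in the knockdown by 0.46 ± 0.12 on the log2 scale (SE, adjusted p = 0.00112), a fold of 1.38. Without centring its log2 change was -0.75, scaled by total counts it was -0.63, and with a standard error 1.5 times larger it was not called (adjusted p = 0.0752).

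Calls after H2O2 covered 26.2% of 18522 tested genes, with 16.6% higher and 9.60% lower. Of the 6 EGR and NAB genes, 4 were called higher and 1 lower. For the knockdown, calls were made for 21.3% of 18266 tested genes, 6.81% higher and 14.5% lower, and of the 6 genes 4 were called higher and 0 lower. With no centring the share of called genes that were higher went from 63.3% to 73.6% after H2O2 and from 32.0% to 19.6% in the knockdown. Because a call needs both tests, centring could take calls away but not add any. The number lower after H2O2 was 1778 and the number higher in the knockdown 1244 under every scaling. The split between directions therefore depends in part on the rule. The comparisons share the wild type libraries given H2O2, so a high or low value there enters both with opposite sign.

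**Figure D1:**
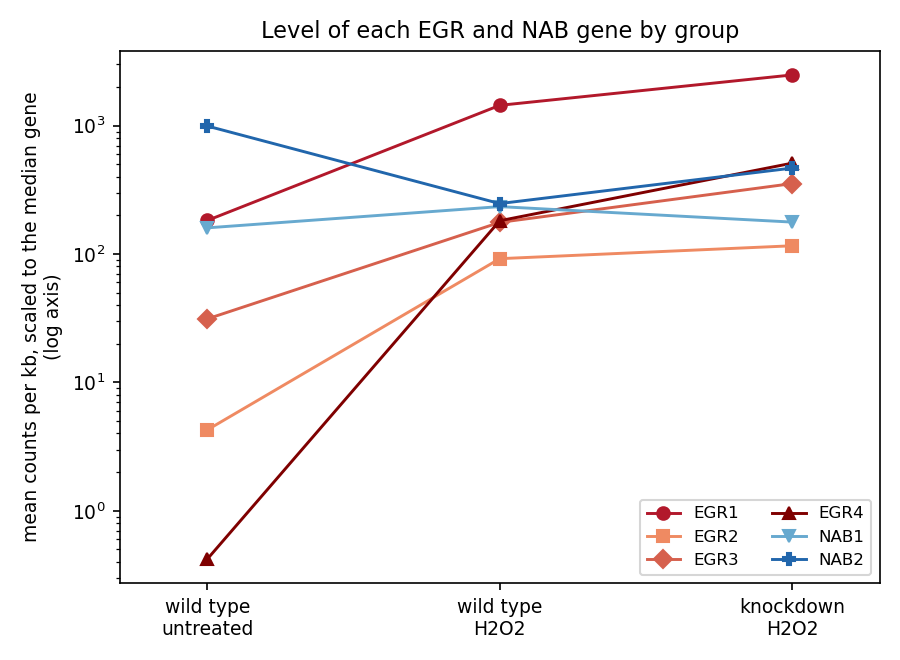
Level of the 6 genes in each group, as mean counts of 2 libraries per kilobase of transcript, scaled to the median gene, on a log axis. The 4 EGR genes rise from untreated to H2O2-treated wild type cells, EGR4 from 0.421 to 181.6 counts per kilobase, while NAB2 falls from 992.5 to 247.1. No error bars are drawn because no values per library were given.

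EGR1, the best studied activator of the family (ENSG00000120738, 1 annotated transcript, chr5:138465490-138469315, plus strand, build hg38 as for the genes that follow), had a mean count of 573 in untreated wild type cells, 5524 after H2O2 and 7790 in the knockdown. It was lowest in untreated cells and highest in the knockdown. Its level per kilobase stood at percentile 49.5 among 12965 protein-coding genes before treatment, 89.7 after H2O2 and 93.6 in the knockdown. After H2O2 it rose by 2.98 ± 0.19 on the log2 scale (SE), 7.87-fold, with a 95% interval of 2.60 to 3.36 and an adjusted p of 3.76e-50. That change was the 336th from the top of the tested genes. In the knockdown EGR1 was higher than in wild type cells given H2O2 by 0.79 ± 0.09 (adjusted p = 2.08e-16), 1.72-fold. Without centring the authors' deposited table gave 3.27 and 0.50 for these log2 changes.

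EGR2, known for driving myelination in Schwann cells (ENSG00000122877, 6 annotated transcripts, chr10:62811996-62919900, minus strand), had mean counts of 10, 263.5 and 271.5 in the same order. It was near the bottom of the range in untreated cells, at percentile 5.88, and at percentile 35.1 and 41.3 in the H2O2-treated groups. The fitted log2 rise after H2O2 was 4.30 ± 0.41 (adjusted p = 5.86e-24), 19.7-fold. Taken from the reads of both libraries, 20 against 527, the ratio relative to the median gene was 21.5, with an exact 95% counting interval of 13.8 to 35.6 that covers counting error only. Between the knockdown and wild type cells given H2O2 the log2 difference was 0.33 ± 0.18, with a 95% interval of -0.02 to 0.69 (adjusted p = 0.171). A rise of up to 0.69 is therefore within the error, and the test gives no call. EGR2's transcript length was not matched to the annotation, and the shortest length that fits the deposited values was used. The fitted log2 changes do not depend on that length. The mean counts, the reads, their ratio and the counting interval do.

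EGR3, required for muscle spindle development in mice (ENSG00000179388, 5 annotated transcripts, chr8:22687659-22693302, minus strand), had a mean count of 57 in untreated wild type cells, 393.5 after H2O2 and 645 in the knockdown. The order of the groups was that of EGR1. The log2 rise after H2O2 was 2.48 ± 0.27 (adjusted p = 2.89e-18), 5.56-fold. In the knockdown EGR3 was higher than in wild type cells given H2O2 by 1.0 ± 0.14 (adjusted p = 3.70e-11), 2.0-fold. An unnamed transcript on the opposite strand, AC055854.1, shares 164 exon bases with EGR3, 3.38% of its exon bases. It had mean counts of 18, 2 and 6.5, and its fall after H2O2 was called (-2.95 ± 0.91, adjusted p = 0.00560), opposite to the direction of EGR3. How strand was handled in counting is not given in the sources used here, so reads of the shared bases cannot be told apart.

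EGR4, the family member that lacks the NAB-binding domain and is best known from brain and testis (ENSG00000135625, 2 annotated transcripts, chr2:73290929-73293705, minus strand), had mean counts of 1, 527.5 and 1211. It was the least abundant of the 6 genes in untreated cells, at percentile 0.810, and reached percentile 49.6 after H2O2 and 72.4 in the knockdown. With 2 reads over the untreated libraries and 1055 over the H2O2-treated wild type libraries, the ratio relative to the median gene was 431, with an exact 95% counting interval of 119 to 3560. The fitted log2 change of 7.75 ± 0.76 (adjusted p = 2.20e-22) includes an added count of 1 and depends on it, and it ranked 1 from the top among the tested genes. In the knockdown, where both groups were well counted, EGR4 rose by 1.49 ± 0.13 (adjusted p = 4.24e-28), 2.80-fold.

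**Figure D2:**
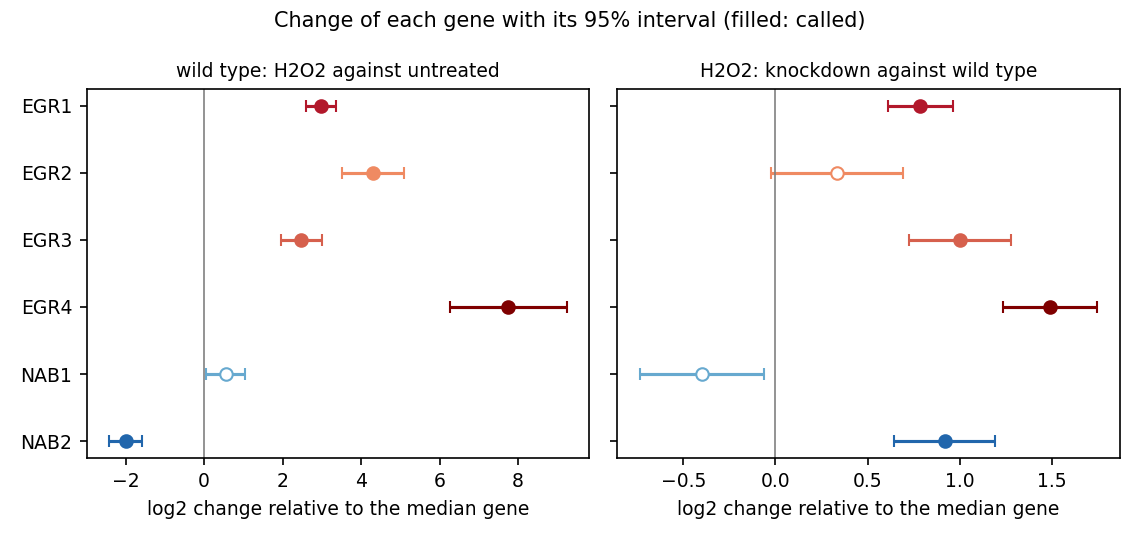
Log2 change of each gene relative to the median gene, with its 95% interval from the implied standard error, for H2O2 against untreated wild type cells (left) and for the knockdown against wild type cells, both given H2O2 (right). Filled points were called. NAB2 lies at -2.00 on the left and 0.92 on the right, and the intervals of NAB1 reach 0.05 on the left and -0.06 on the right.

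The EGR genes did not all change by the same amount. Taking the errors of different genes as independent, EGR2 rose by 1.32 ± 0.45 more than EGR1 after H2O2 on the log2 scale (95% interval 0.44 to 2.20). EGR3 differed from EGR1 by -0.50 ± 0.33, an interval of -1.15 to 0.15 that includes 0. In the knockdown, EGR4 rose by 0.70 ± 0.16 more than EGR1 and by 1.15 ± 0.22 more than EGR2, with 95% intervals that leave out 0. The change of EGR2, itself not called, differed from that of EGR1 by -0.45 ± 0.20 (interval -0.85 to -0.05), while EGR3 and EGR1 differed by 0.22 ± 0.17 (interval -0.11 to 0.55). EGR1 remained the main member by summed level per kilobase, at 83.6% of the EGR total in untreated cells, 76.2% after H2O2 and 71.7% in the knockdown. The share of EGR4 was 0.193%, 9.62% and 14.7% in the same groups.

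NAB2, an EGR corepressor (ENSG00000166886, 5 annotated transcripts, chr12:57088894-57095476, plus strand), had a mean count of 1385.5 in untreated wild type cells, 422 after H2O2 and 652 in the knockdown. Among the 6 genes NAB2 alone had its highest level without treatment, at percentile 84.6, against 56.8 and 70.6 in the H2O2-treated groups. NAB2 fell after H2O2 by 2.0 ± 0.21 on the log2 scale (adjusted p = 1.35e-19), 4.01-fold, the 414th largest fall among the tested genes. It rose in the knockdown by 0.92 ± 0.14 (adjusted p = 9.33e-10), 1.89-fold. Relative to untreated wild type cells, the knockdown given H2O2 stood at -1.09 for NAB2, a value with no test. The 3′ ends of NAB2 and STAT6, a cytokine-activated transcription factor on the opposite strand, share 69 exon bases, 2.29% of those of NAB2. STAT6 had mean counts of 2232, 2616 and 1991 and was not called in either comparison (-0.06 ± 0.20, adjusted p = 0.857 after H2O2, and -0.10 ± 0.09, adjusted p = 0.480 in the knockdown).

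NAB1, the other corepressor (ENSG00000138386, 10 annotated transcripts, chr2:190646746-190692766, plus strand), had mean counts of 220, 394 and 244. It was highest in wild type cells given H2O2. Its log2 change was 0.55 ± 0.26 after H2O2 (95% interval 0.05 to 1.05, adjusted p = 0.0872) and -0.40 ± 0.17 in the knockdown (interval -0.74 to -0.06, adjusted p = 0.0650), and neither was called. In the authors' deposited table, without centring, both passed, at 0.84 (adjusted p = 0.00441) and -0.69 (adjusted p = 0.000333), so the call for NAB1 depends on the scaling. NAB2 changed differently from NAB1 in both comparisons, by -2.55 ± 0.33 after H2O2 and by 1.32 ± 0.22 in the knockdown. An antisense transcript that shares 186 exon bases with NAB1, AC006460.1, had mean counts of 0, 0.5 and 0.

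**Figure D3:**
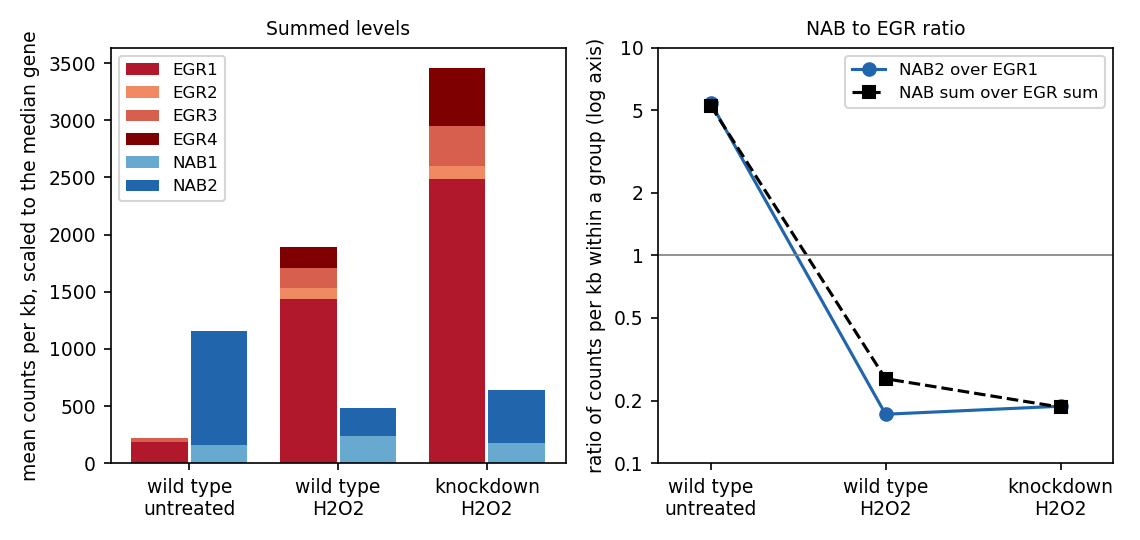
Left, summed levels of the EGR genes and of the NAB genes in each group, as mean counts per kilobase scaled to the median gene. Right, the ratio of NAB2 to EGR1 and of the NAB sum to the EGR sum within each group, on a log axis, which does not depend on scaling between groups. The NAB to EGR sum goes from 5.27 in untreated cells to 0.255 after H2O2 and 0.186 in the knockdown.

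The balance of corepressors and activators was compared as ratios of counts per kilobase within a group, so that scaling between groups plays no part. NAB2 was 5.44 times EGR1 in untreated wild type cells. The ratio was 0.172 in wild type cells given H2O2 and 0.188 in the knockdown. The log2 fall of NAB2 relative to EGR1 after H2O2 was -4.98 ± 0.29, a fold of 31.6, whereas the knockdown and wild type cells given H2O2 differed by 0.13 ± 0.17 (95% interval -0.20 to 0.46). NAB2 was 6.21 times NAB1 in untreated cells, 1.06 times after H2O2 and 2.63 times in the knockdown. The summed EGR level was 218.5 counts per kilobase before treatment, 1889 after H2O2 and 3461 in the knockdown, against 1152, 481.1 and 644.2 for the NAB sum. These are levels of newly made RNA, and the proteins were not measured.

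Within untreated cells the order of levels per kilobase was NAB2, EGR1, NAB1, EGR3, EGR2 and EGR4. Only EGR1 and NAB1 among neighbours in that order were within their approximate error, 1.14-fold apart. After H2O2 EGR1 led by 5.82-fold, and NAB2, NAB1, EGR4 and EGR3 followed with steps of 1.06-fold, 1.29-fold and 1.03-fold. None lay beyond the approximate error, but that of EGR4 comes from the comparison with untreated cells, where it had 2 reads. The steps on either side of EGR4 therefore cannot be judged by it. EGR2 came last, 1.92-fold under EGR3. In the knockdown EGR1 stood 4.87-fold above EGR4, EGR4 and NAB2 were 1.09-fold apart and within error, and EGR3, NAB1 and EGR2 followed with steps beyond it. The order rests on a single length per gene, and the error does not cover that choice. Lengths used were 1824 bases for EGR3, 2342 for EGR2 and 1376 for NAB1, while the longest annotated transcripts have 4336, 2968 and 4358. Steps between genes could therefore change with the length chosen, as could the shares and ratios within a group given above.

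Genes upstream of the EGR family were described from lists of known regulators. Of 6 SRF and ternary complex factor genes, 1 was called higher after H2O2 and 0 lower, and 1 of 6 is close to the share of all tested genes. Of all tested genes 16.6% were called higher and 9.60% lower. The list median was 0.12 against 0.05 for all tested genes. SRF itself rose by 0.85 ± 0.20 (mean counts 2188, 4810 and 3451, adjusted p = 0.000166). In the knockdown 1 of the 6 was called higher and 1 lower, against 6.81% and 14.5% of all tested genes. MKL1, an SRF coactivator, rose by 0.67 ± 0.12 and ELK3, a ternary complex factor, fell by 0.37 ± 0.10. ELK3 was the 1 gene of the list called lower, and that count was 3 under each of the other scalings and 0 with a standard error 1.5 times larger. Of 18 genes of the RAS-ERK-MSK kinase route, 7 were called higher after H2O2 and 1 lower, against 16.6% and 9.60% of all tested genes. The list median was 0.34, and the number higher was 11 without centring and 2 with the larger error. The kinase genes RPS6KA2 (1.37 ± 0.20) and MAPK3 (0.84 ± 0.21) were among those that rose, and the GTPase HRAS fell by 1.16 ± 0.20. In the knockdown MAP2K2, which activates ERK, was called higher (0.76 ± 0.09), the adaptor GRB2 and the GTPase NRAS were called lower (-0.26 ± 0.10 and -0.38 ± 0.13), and the median was -0.03 against 0.01. Of the 18 genes 1 was called higher and 2 lower, against 6.81% and 14.5% of all tested genes. The number called lower was 8 without centring, 7 scaled by total counts and 5 centred over genes with at least 500 mean counts. It was 4 with the filter of 10 mean counts and 0 with the larger error. These lists concern the RNA of the signalling proteins, not their activity.

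Genes known from other cells as EGR targets were taken as a list. Of 33 listed, 31 were tested, and FLT1 and FASLG were not. After H2O2 16 were called higher and 2 lower, against 16.6% and 9.60% of all tested genes, with a median of 0.61 against 0.05 for all tested genes. ARC, a synaptic immediate early gene, had mean counts of 22.5, 2911.5 and 7780.5 and rose by 6.66 ± 0.28. ATF3, a stress-induced transcription factor, had 288, 7141 and 15567 and rose by 4.34 ± 0.21. The growth factor gene PDGFB had 34.5, 383 and 168.5 and rose by 3.14 ± 0.29. The genes that fell were ID3, an inhibitor of basic helix-loop-helix factors (-2.30 ± 0.20, mean counts 27586.5, 6864.5 and 4965), and NAB2.

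In the knockdown 3 of the 31 targets were called higher and 6 lower, against 6.81% and 14.5% of all tested genes. With centring on the median gene, neither share stood far from that of all genes. Those higher were ARC (1.71 ± 0.08), ATF3 (1.41 ± 0.07) and NAB2, and those lower included FN1, PDGFB, THBS1, F3 and PDGFC. FN1, which encodes the matrix protein fibronectin, had mean counts of 31450.5, 91757.5 and 37225.5 and fell by 1.01 ± 0.08. PDGFB fell by 0.89 ± 0.19. THBS1, which encodes thrombospondin, fell by 0.68 ± 0.07, the coagulation initiator F3 by 0.43 ± 0.09 and PDGFC by 0.33 ± 0.09. The number called lower depended on the scaling, with 14 without centring and 11 when scaled by total counts. Over all 18266 tested genes, 2640 were called lower in the main setting, 5118 without centring and 3964 when scaled by total counts. The closeness to all genes was thus read for the main setting only. The list median in the knockdown was -0.06 against 0.01 for all tested genes.

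**Figure D4:**
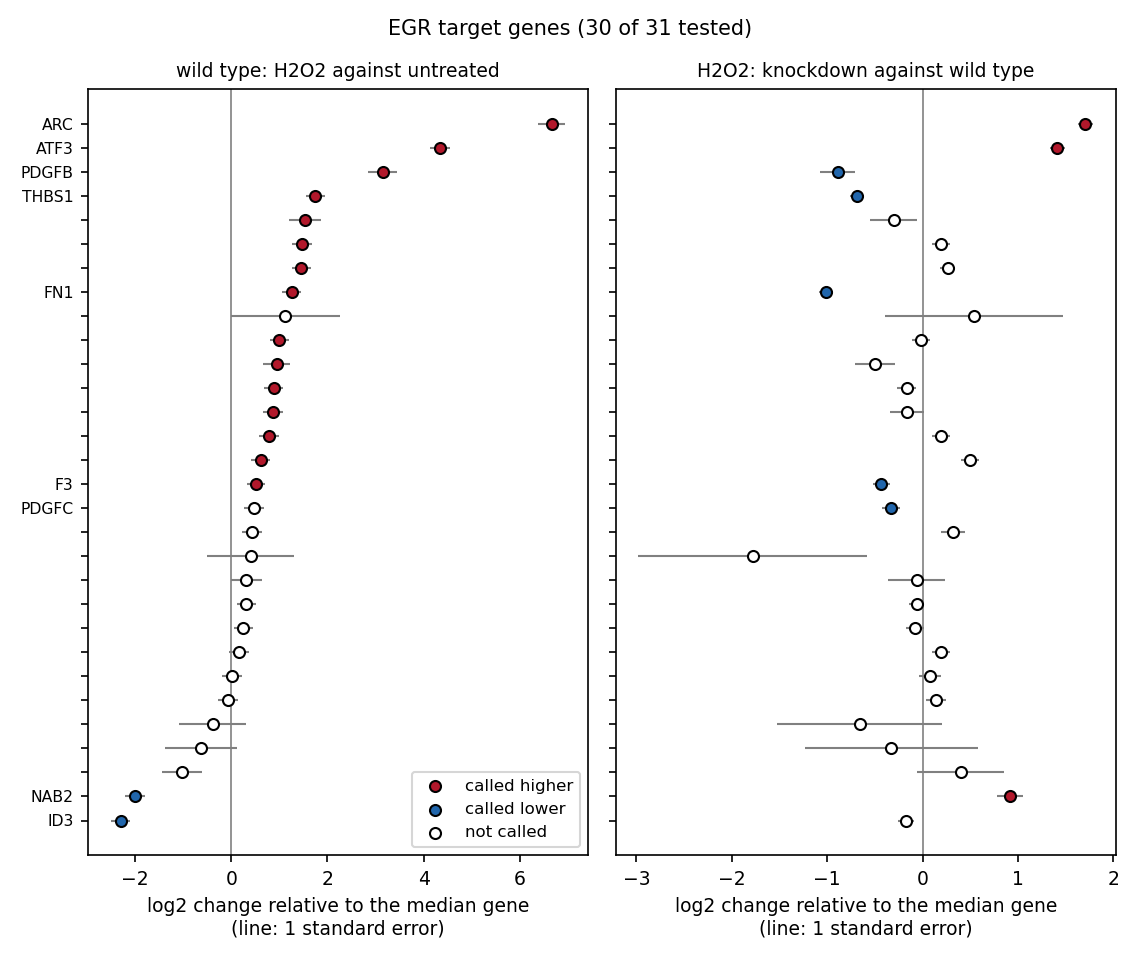
Log2 change relative to the median gene of 30 of the 31 tested EGR target genes, ordered by their change after H2O2, with lines of 1 standard error and with names for the genes named in the text. Left, H2O2 against untreated wild type cells. Right, the knockdown against wild type cells, both given H2O2. ARC and ATF3 are called higher in both panels, while PDGFB, THBS1, FN1 and F3 are called higher on the left and lower on the right.

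The NuRD complex, a partner of the NAB proteins, was described in the same way. Of 13 NuRD complex genes 2 were called higher after H2O2, CHD3 (0.69 ± 0.21) and the deacetylase gene HDAC2 (0.52 ± 0.21), a share close to the 16.6% of all tested genes, with a median of 0.25 against 0.05. That count was 9 without centring, 1 when scaled by total counts or centred over genes with at least 500 mean counts, and 0 with a standard error 1.5 times larger. In the knockdown HDAC2 fell by 0.72 ± 0.10 and RBBP7, a histone-binding subunit, fell by 0.49 ± 0.11, with a median of 0.09 against 0.01. The number called lower was 2 of 13, against 14.5% of all tested genes. It was 6 without centring and 4 with either other scaling. CHD4, the subunit named above, was called in neither comparison, with -0.02 ± 0.21 after H2O2 and 0.24 ± 0.10 in the knockdown. Its adjusted p in the knockdown was 0.0422 after centring but 0.763 in the deposited table.

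The genes nearest to each member in their pattern were found among 11191 protein-coding genes by the Euclidean distance over the 2 log2 changes, which rests on 3 groups only. ARC lay nearest to EGR4 at 1.11, followed by FOSB, an AP-1 subunit, at 1.73 and FOXJ1 at 2.03. FOSB had mean counts of 156.5, 13025 and 39704.5. No other gene lay closer to EGR4 than ARC. The farthest of the 3 nearest genes lay at 0.112 from EGR1 (GAL3ST1, RCN3 and KRT86), at 0.123 from EGR3 (MGARP, CLDN6 and PADI1) and at 0.258 of EGR2 (PYGM and GSG1L among them). For NAB2 it lay at 0.0952 (TMEM86B, RPP25L and BDH1), and for NAB1 TULP3, RNF187 and SEC23B lay at 0.0058, 0.0112 and 0.0141.

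Markers of cell types were read beside these results. Of 10 genes of differentiated pigment epithelium, 7, 6 and 6 had mean counts under 10 in the 3 groups, and 3, 1 and 2 were at 0. TYRP1, a pigment enzyme gene, was at 0 in all groups, and RPE65, of the visual cycle, had mean counts of 0, 6 and 0.5. The lineage factors MITF (674, 660.5 and 583.5) and OTX2 (387, 166.5 and 160.5) were well counted, and BEST1 had 4.5, 63 and 33.5. Their summed level was 743, 484 and 528 counts per kilobase, with BEST1 called higher and OTX2 lower after H2O2 and none called in the knockdown. Of 6 epithelial markers, KRT8 and KRT19 were called higher after H2O2 and lower in the knockdown, with sums of 16900, 31000 and 25300. Of 9 fibroblast markers, PDGFRB and COL1A1 were called higher after H2O2, PDGFRB and FAP were lower in the knockdown, and the sums were 4100, 6920 and 6950.

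Markers were also read for cells in which EGR factors are best known, and those of T cells and leukocytes were mostly low. Of 8 T cell and leukocyte markers, CD2, CD3D, CD3E and CD3G were at 0 in all groups, CD4 was called higher after H2O2 (mean counts 8.5, 42.5 and 35.5), and the sums were 12.1, 41.0 and 46.6 counts per kilobase. Of 8 neuron markers, 4, 3 and 3 had mean counts under 10 in the 3 groups. TUBB3 and SYP were called higher after H2O2 and TUBB3 lower in the knockdown, with sums of 308, 415 and 293. MAP2 had mean counts of 442.5, 320.5 and 197.5 and was called in neither comparison. After H2O2 its change was -0.76 ± 0.23, with an adjusted p of 0.00553 after centring but 0.106 in the deposited table. The part of such markers in the EGR and NAB changes was not tested. In bulk RNA, fewer cells of a type and less RNA per cell cannot be told apart.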

How the data were processed

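The data are 4sU-seq tables of RPE1 cells, 6 libraries in 3 groups, grouped by the labels' genotype and treatment. Per the labels' protocols, Trizol was used for RNA isolation and library preparation was standard Illumina. Per the submitters' processing notes, the tools were STAR 2.5, DESeq and DESeq2 and the build hg38, with no roles or settings given. The counter, its strand setting and the annotation are not given in the sources used here.

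Each table the authors deposited holds 1 signal value per gene and group, with libraries pooled. Beside it stand a deposited log2 fold change, which is the log2 of the ratio of the group values, and a deposited p-value with its adjusted form. The steps of the signal values showed that each is the mean count plus 1, divided by transcript length and multiplied by a constant. Lengths were found for all 60448 genes, within a tolerance of 1e-06, and 86.0% equal the mean transcript length of GENCODE v29 rounded down. The depth behind single libraries is unknown.

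Tests planned for single libraries were not possible on such tables, and the fallback of the design was used. The standard error is the size of the log2 fold change over the normal quantile of its p-value (median 0.29 and 0.24). For 224 and 291 genes, none of them EGR or NAB genes, it came from 101 neighbours in mean count. Each change was taken relative to the median over tested genes reaching 50 mean counts (11602 and 11556 genes), tested with a normal test and adjusted by Benjamini-Hochberg over 18522 and 18266 genes. Levels per kilobase were scaled by the same medians. The steps were tested on simulated data with normal errors and few changed genes, equally likely to rise or fall. That setting meets the assumptions of the test, so it does not show how centring behaves when many genes change. Alternatives used no centring, total counts, a minimum of 500 for centring, a filter of 10 mean counts, no added count, or a standard error 1.5 times larger.

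Named genes are the 6 members, NUMA1, the 3 nearest genes of each member, the 3 called members of each list with the largest change, and all called where 5 or fewer were called in a direction. PDGFB, THBS1, F3 and PDGFC in the knockdown were named after their values were seen, as were CHD4, STAT6, MAP2 and the antisense transcripts. A few genes that the rule selects are not reported here. Members, gene lists and the rule were chosen with earlier results of these data known. Promoter windows and motif matches use RefSeq starts on GRCh38.p14. Python 3.11.15, pandas 2.3.3, NumPy 2.4.6, SciPy 1.17.1 and matplotlib 3.10.9 were used.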

Additional observations from a re-analysis of the deposited data

How the results depend on the processing

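Over 6 alternatives, 68 of the 72 values for the EGR and NAB genes kept their direction and call, and 4, all of NAB1, became called. NAB1 after H2O2 was 0.84 without centring (adjusted p = 0.00441), and in the knockdown it was -0.69 without centring, -0.57 scaled by total counts (adjusted p = 0.00428) and -0.46 when centred over genes with at least 500 mean counts (adjusted p = 0.0273). Without centring, no depth scaling is applied. The other members' log2 ranges after H2O2 were 2.91 to 3.27 for EGR1, 4.23 to 4.59 for EGR2, 2.41 to 2.77 for EGR3, 7.69 to 8.75 for EGR4 and -2.07 to -1.71 for NAB2. In the knockdown they were 0.50 to 0.79, 0.04 to 0.34, 0.71 to 1.0, 1.20 to 1.49 and 0.63 to 0.92.

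Genes called after H2O2 numbered 4845, and 2625 with a standard error 1.5 times larger. In the knockdown 3884 were called, 6362 without centring and 2442 with the larger error. Of called genes 50.4% were then higher after H2O2 and 45.4% in the knockdown. Of 264 values for 44 list counts, 32 moved by over 1.5 times.

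No paired analysis was possible because the tables hold 1 value per group, and for the same reason leaving out a library was not run. How far 1 library sets a value is therefore unknown, and the implied error assumes that the deposited p came from a normal test. Low depth limits EGR4 and EGR2 in untreated cells, at 2 and 20 reads.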

Other observations

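Genes of Schwann cells and myelin, in which EGR2 and the NAB proteins are best known, included some that rose after H2O2. Of 8 such genes 5 were tested and 3 were called higher, against 16.6% of all tested genes. That count was 4 without centring and 1 with a standard error 1.5 times larger. POU3F1, a factor that acts with EGR2 in Schwann cells, had mean counts of 0.5, 79 and 24.5 in untreated wild type, H2O2-treated wild type and knockdown libraries and was called lower in the knockdown (-1.36 ± 0.41, adjusted p = 0.00410). PRX and MBP, genes of myelin proteins, rose after H2O2 by 1.14 ± 0.30 and 1.79 ± 0.55. SOX10, which defines the lineage, was at 0 in all groups, as were MAG and GJB1. The summed level was 798, 1120 and 1220 counts per kilobase.

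Factors that bind the GC box, which resembles the EGR site, were called in neither direction after H2O2, 0 of 4 tested. Of all tested genes 16.6% were called higher and 9.60% lower. The list's median log2 change was 0.26, but 3 of the 4 were called higher without centring. In the knockdown SP3 fell by 0.68 ± 0.13 and SP1 by 0.32 ± 0.13. WT1, whose zinc fingers resemble those of EGR1, had mean counts of 1.5, 0 and 0 and was not tested.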
